A study of Homo sapiens with 2 samples.

Results

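The p52 summits at protein-coding promoters were the summits of p52 ChIP-seq peaks that lay within 1 kb of the start site of any annotated transcript of a protein-coding gene on chromosomes 1 to 22, X or Y, and outside processed pseudogenes. Replicate 1 had 361 of them among its 1804 summits on these chromosomes (20.01%, Wilson 95% CI 18.2 to 21.9). Replicate 2 had 180 among 1225 (14.7%, 95% CI 12.8 to 16.8). On average promoters took 17.4% ± 3.76 of a list (SD, n = 2). The complete lists, which also cover unplaced and alternate sequences, held 2007 and 1467 summits. A summit is the single base at which the peak caller placed the highest signal of a peak, and its strength here is the −log10 of the q-value that the authors deposited for it. The members were chosen by position alone, so neither strength nor sequence entered the choice.

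Chromatin was taken from MDA-MB-231 cells, an established line of triple-negative breast cancer (TNBC). The cells were starved for 8 h and then given 10 ng/ml TWEAK for 48 h, with fresh cytokine after 24 h. The antibody was labelled by its target, NFKB2. Both libraries belonged to this 1 group (n = 2), and libraries without TWEAK, with control antibody or of input DNA were not analysed here. None of the values below compares TWEAK with its absence. Read depth was unknown.

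TWEAK binds the receptor Fn14, which in turn recruits TRAF adaptors and allows the kinase NIK to accumulate. NIK and IKKα then drive the processing of p100, the product of NFKB2, into p52, which enters the nucleus chiefly with RELB. Dimers of the family read κB sites, short motifs of G at one end and C at the other, and many genes that restrain NF-κB are themselves known targets.

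The sites below lie at reproduced summits of pathway genes, of the target gene CSF1, and of GPBP1 and ARF3, which are among the strong promoters outside the pathway. Each is 30 bases of the hg38 plus strand, 5′ to 3′, with the nearest match to the κB consensus in capitals. The consensus is GGG, a purine, a pair of free bases, a pair of pyrimidines and CC, 10 bases in all, sought on both strands.
NFKB2, exon outside coding sequence, chr10:102394461-102394490: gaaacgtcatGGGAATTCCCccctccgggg
NFKB2, exon outside coding sequence, chr10:102394490-102394519: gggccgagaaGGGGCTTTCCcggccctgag
RELB, upstream, chr19:45001323-45001352: gtgacgcgtgGGGGTTTTCCcgttccccag
REL, exon outside coding sequence, chr2:60881517-60881546: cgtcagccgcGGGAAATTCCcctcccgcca
NFKBIA, exon outside coding sequence, chr14:35403953-35403982: caggcgcccaGGGACTTTCCgcccccctcc
NFKBIB, intron, chr19:38899931-38899960: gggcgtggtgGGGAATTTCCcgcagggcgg
BCL3, exon outside coding sequence, chr19:44748700-44748729: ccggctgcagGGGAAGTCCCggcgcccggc
TNIP1, intron, chr5:151087199-151087228: aggcaggaggGGAATTCCCCgagatggagg
TRAF1, intron, chr9:120928504-120928533: catcctctgcGGGGAATTCCccccgcgtct
CSF1, intron, chr1:109910459-109910488: aggcctggagGGAAAGTCCCttgggacgat
GPBP1, upstream, chr5:57173623-57173652: agggagcggcGGGGAATTCCcccttccacc
ARF3, exon outside coding sequence, chr12:48956378-48956407: caatcaagacGGGAATTCCCccaaaataac
At TNIP1 and CSF1 the match is on the minus strand, so the capitals are its reverse complement. Both NFKB2 lines belong to 1 pair, and the second gives the match nearest to the summit of replicate 2. The centre of the match lay 1.5 bp from the summit of replicate 1 for the first NFKB2 line. It lay 0.5 bp away at GPBP1, TRAF1 and ARF3, and 2.5 bp at TNIP1. It was 0.5 bp away at REL, 5.5 bp at NFKBIB and 6.5 bp at RELB. At BCL3 and CSF1 the distance was 25.5 bp, and at NFKBIA 42.5 bp.

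Wider windows show what else stands beside a site. The window of 50 bases on each side of the RELB summit of replicate 1 holds its κB match in capitals and 4 other promoter motifs, each sought on both strands. The first is a GC box, spelled GGGCGG. Another is the CRE, spelled TGACGTCA, which 0.412% of tiles of the same length as the summit windows held around the canonical start sites of all protein-coding genes. The E-box, spelled CACGTG, was in 3.45% of those tiles. The last is a CCAAT box. The CD83 window holds overlapping and separate κB matches.
RELB, chr19:45001294-45001394: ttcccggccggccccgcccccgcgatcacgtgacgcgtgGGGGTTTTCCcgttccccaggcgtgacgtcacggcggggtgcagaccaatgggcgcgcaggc
CD83, chr6:14117656-14117756: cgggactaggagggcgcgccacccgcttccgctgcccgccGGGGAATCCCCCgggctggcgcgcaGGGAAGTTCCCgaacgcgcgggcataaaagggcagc
These letters describe the reference and show no occupancy by other factors.

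To place the κB motif among the promoter summits, matches were counted within 100 bp of each summit. In replicate 1, 199 of 361 promoter summits had a match (55.1%, 95% CI 49.97 to 60.2). In replicate 2, 113 of 180 had one (62.8%, 95% CI 55.5 to 69.5). The mean was 59.0% ± 5.41 (SD, n = 2). Over all summits the shares were 52% and 57.3%. By comparison, 7.995% of the 200320 tiles of equal length around the canonical start sites of all 20033 protein-coding genes held a match, with 4.96% to 11.1% by position. Most promoter summits therefore had the motif, at a share near that of their own list and well above that of promoter sequence at large.

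Promoter summits had κB matches less often than distal summits and more often than summits in exons away from promoters. Distal introns carried a match at 80.0% of 455 summits in replicate 1 and at 78.9% of 380 in replicate 2. The odds ratio of promoters against them was 0.31 (exact adjusted p = 1.63e-13, 95% CI 0.23 to 0.42) and 0.45 (adjusted p = 0.000169, 95% CI 0.31 to 0.66). Here and for the other classes Fisher's exact test was two-sided, with Benjamini-Hochberg adjustment over 24 tests. Against intergenic summits, with shares of 84.7% and 81.4%, it was 0.22 (exact adjusted p = 6.83e-17) and 0.39 (adjusted p = 3.57e-05). Against exons beyond promoters, with 11.8% and 15.1%, it was 9.09 (exact adjusted p = 5.99e-31) and 9.30 (adjusted p = 6.23e-18). Without summits in coding sequence, replicate 2 no longer passed against introns (odds ratio 0.74, exact adjusted p = 0.241) or intergenic sequence (0.63, adjusted p = 0.0826), while replicate 1 still passed. Summits of 1 list come from 1 library, so these tests cover counting error over summits. The distal classes held no summits in exons of protein-coding genes by definition, while the promoter summits did. Outside exons, promoter summits had a match at 76.6% in replicate 1 and 84.8% in replicate 2, near the distal shares. The part of exons in the difference from distal summits was not tested.

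The AP-1 motif (TGACTCA or TGAGTCA) was less frequent at promoter summits than at distal summits. It was found at 15 promoter summits of replicate 1 (4.16%) and 5 of replicate 2 (2.78%), against 7.93% and 7.67% of all summits and 2.21% of the tiles. Intergenic summits carried it at 15.6% and 14.9%, and the odds ratio of promoters against them was 0.24 (exact adjusted p = 9.57e-07) and 0.18 (adjusted p = 2.46e-05). Against distal introns it was 0.34 (exact adjusted p = 0.000186) and 0.29 (adjusted p = 0.00488). Exons beyond promoters carried the motif at 2.42% and 0.685%. Promoters had higher shares than these exons, but the differences did not pass (odds ratio 1.69, exact adjusted p = 0.303, and 3.04, adjusted p = 0.274). The replicate 2 call against introns was lost among the stronger 50% of summits (odds ratio 0.54, exact adjusted p = 0.486) and at −log10 q of at least 5 (0.40, adjusted p = 0.0843).

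**Figure D1:**
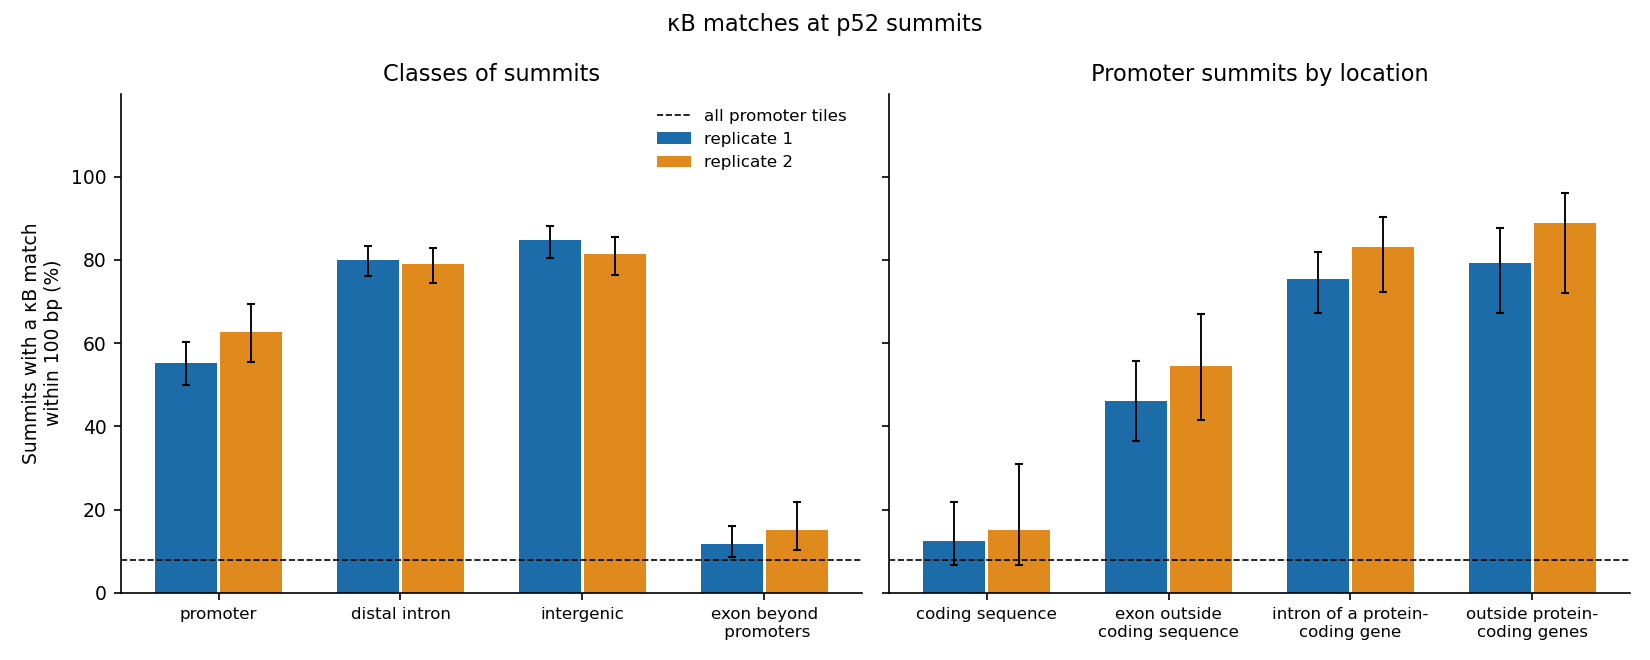
Share of summits with a κB match within 100 bp (percent), by class of summit (left) and, for promoter summits, by location in the annotation (right). Bars are single replicates, whiskers are Wilson 95% intervals over summits and the dashed line is the 7.995% of tiles around all canonical start sites; coding sequence stays near that line and introns and sequence outside genes stand far above it.

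Within the promoters, the κB share depended most visibly on whether the summit lay in an exon. Inside exons, 55 of 173 summits of replicate 1 (31.8%) and 35 of 88 of replicate 2 (39.8%) had a match. Outside exons, 144 of 188 (76.6%) and 78 of 92 (84.8%) had one. The odds ratio was 0.14 (exact adjusted p = 6.50e-17, 95% CI 0.091 to 0.23) in replicate 1. It was 0.12 in replicate 2 (exact adjusted p = 1.54e-09, 95% CI 0.061 to 0.25). Such splits of the promoter summits were compared by Fisher's exact test, two-sided and adjusted over 10 tests. Coding sequence was lowest, at 9 of 73 summits (12.3%) and 5 of 33 (15.2%). Exon sequence outside the coding part held a match at 46.0% and 54.5%, introns at 75.4% and 83.1%, and sequence outside protein-coding genes at 79.3% and 88.9%. Among windows whose 31-mers were mostly single-copy in the genome, coding summits had a match at 13.1% and 13.6%, so the low share was as low there.

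The distance to the nearest start site, which the choice of members limits to 1 kb, had a median of 263 bp in replicate 1 and 265 bp in replicate 2. It is given as a description. Summits with a κB match lay a median of 32 bp and 46 bp upstream, those without one 103 bp and 246 bp downstream. A match was present at 66.1% of the summits at or upstream of the start site against 45.6% downstream in replicate 1 (odds ratio 2.31, exact adjusted p = 0.000213), and at 79.1% against 47.9% in replicate 2 (odds ratio 4.03, adjusted p = 3.21e-05). With 1 canonical start site per gene replicate 1 did not pass (odds ratio 1.73, exact adjusted p = 0.0603). Outside exons the 2 sides were closer, with 78.3% against 73.5% in replicate 1 and 87.3% against 79.3% in replicate 2, and overlapping 95% intervals. Inside exons they were 35.4% of 48 against 30.4% of 125 in replicate 1 and 56.5% of 23 against 33.9% of 65 in replicate 2, also with overlapping intervals. The share of the exon in the difference between the sides was not tested. Promoter summits near a canonical start site had a match at 60.1% against 46.1% for those near other start sites only in replicate 1 (exact adjusted p = 0.0140), and at 67.6% against 55.6% in replicate 2 (exact adjusted p = 0.117). The replicate 1 call was lost in 4 alternatives, among them the one without coding summits (odds ratio 1.30, exact adjusted p = 0.352).

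**Figure D2:**
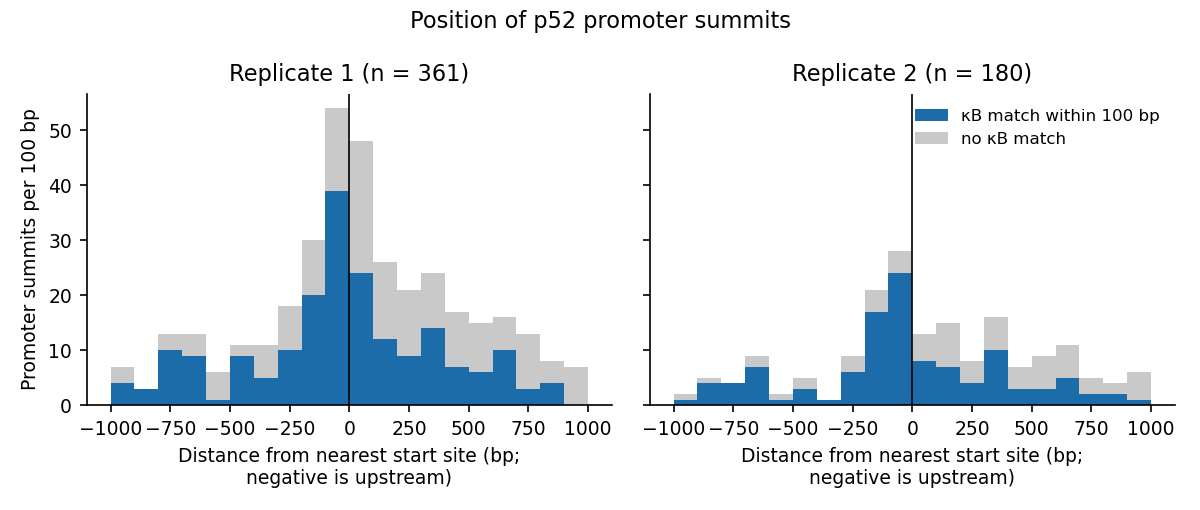
Promoter summits per 100 bp by distance from the nearest start site (bp, negative is upstream), for replicate 1 (n = 361) and replicate 2 (n = 180), with the part that has a κB match in blue. The grey part without a match is larger on the downstream side.

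Where a κB match was present, it usually sat under the summit. The median distance from the centre of the nearest match to the summit was 11.5 bp in replicate 1 and 10.5 bp in replicate 2. It was at most 25 bp at 72.9% and 73.5% of the summits with a match. Matches that did not overlap each other numbered 2 or more at 15.6% and 19.5% of these summits. Per 100 positions and summit, match centres within 10 bp of the summit numbered 2.24 and 2.67, against 0.053 and 0.043 at 250 to 500 bp.

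**Figure D3:**
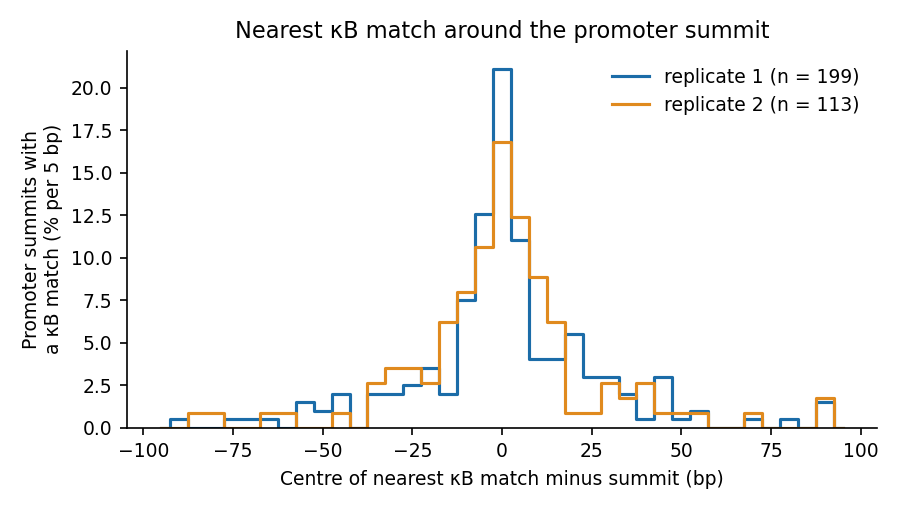
Centre of the nearest κB match minus the summit (bp), as the percentage of promoter summits with a match per 5 bp, for each replicate. Both lines are highest at the summit and are low beyond 50 bp.

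The letters of the sites differed in frequency from those at distal summits. GGGAAATCCC was the most frequent nearest match at promoters, at 9.55% of the sites in replicate 1 and 10.6% in replicate 2, and it made up 18.7% and 21.2% at distal introns and intergenic summits. GGGGCTTTCC had 7.54% and 7.96% at promoters and 3.56% and 2.89% at distal summits. The fifth and sixth bases were both A or T at 52.8% and 54.9% of promoter sites, 75.1% and 80.0% of distal sites and 14.98% of the matches in the tiles. These shares were not tested.

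Median GC content within 100 bp was 62.7% and 60.9%, against 55.2% for all tiles. By position the tiles ranged from 47.3% at the upstream edge to 66.2% just downstream of the start site. The shares that follow were not matched on position. A GC box (GGGCGG) occurred at 42.9% and 35.6% of the promoter summits, at 26.4% of the tiles and at 12.6% and 12.02% of the distal summits. A CCAAT box was found at 16.3% and 18.9%, against 20.1% of the tiles, and a TATA box (TATAAA) at 3.05% and 3.89%, against 8.05%. The observed over expected CpG ratio had a median of 0.63 and 0.58, against 0.51 for the tiles.

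Reproduction in the other list, meaning a summit there within 200 bp, was found for 131 promoter summits of each replicate. They formed 36.3% of the promoter summits in replicate 1 (Wilson 95% CI 31.5 to 41.4). In replicate 2 they formed 72.8% (Wilson 95% CI 65.9 to 78.7), against 47.4% and 69.8% of all summits. In replicate 1 promoter summits were reproduced less often than those of distal introns (56.5%, odds ratio 0.44, exact adjusted p = 4.82e-08) and intergenic sequence (57.2%, odds ratio 0.43, adjusted p = 1.55e-07). In replicate 2 the differences did not pass (odds ratio 1.27, 95% CI 0.86 to 1.88, exact adjusted p = 0.274, and 1.09, 95% CI 0.72 to 1.66, adjusted p = 0.749). Against exons beyond promoters the odds ratio was 1.39 (exact adjusted p = 0.0684) and 1.97 (adjusted p = 0.00712), and the latter call was lost among the stronger 50% (1.23), at −log10 q of at least 5 (2.01) and with reproduction within 500 bp (1.36). For replicate 1 the call against introns was lost among the stronger 50% (odds ratio 0.70, exact adjusted p = 0.186). Absence from a list does not show that a promoter was unbound, since the depth is unknown.

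Strength and the κB match went together with reproduction. In replicate 1 the 91 strongest promoter summits were reproduced at 83.5% and the 90 weakest at 6.67%, and in replicate 2 the 45 strongest at 95.6% and the 45 weakest at 33.3%. A κB match was present at 70.2% of reproduced against 46.5% of other promoter summits in replicate 1 (odds ratio 2.69, exact adjusted p = 3.21e-05), and at 68.7% against 46.9% in replicate 2 (odds ratio 2.46, adjusted p = 0.0133). At −log10 q of at least 5 neither passed (odds ratio 1.52, exact adjusted p = 0.167, and 1.48, adjusted p = 0.624). The stronger 50% of the promoter summits had a match at 71.1% against 39.2% of the weaker 50% in replicate 1 (exact adjusted p = 4.05e-09) and at 70.0% against 55.6% in replicate 2 (adjusted p = 0.0710), which did not pass. Among the stronger 50% of the whole list the direction turned in replicate 1 (odds ratio 0.78, exact adjusted p = 0.717). There the split was at the median of the promoter summits left, a different cut from the main one.

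Promoter summits stood between the other classes in strength. Their median −log10 q was 7.98 in replicate 1 and 7.89 in replicate 2, with quartiles of 4.55 and 15.1 and of 4.35 and 14.7. Those of distal introns had medians of 11.8 and 9.37 and those of exons beyond promoters 5.96 and 5.02. The share above the median of the list was 38.8% for promoters against 56.7% for introns in replicate 1 (odds ratio 0.48, exact adjusted p = 1.12e-06) and 43.9% against 46.3% in replicate 2 (0.91, 95% CI 0.64 to 1.30, adjusted p = 0.678). Against exons it was higher in both (odds ratio 1.49, exact adjusted p = 0.0270, and 2.55, adjusted p = 0.000186), and against intergenic sequence lower in both (0.47, adjusted p = 2.87e-06, and 0.62, adjusted p = 0.0226). None of these exon and intergenic calls passed at −log10 q of at least 5, and among the stronger 50% the direction against exons turned (odds ratios 0.93 and 0.66). The replicate 1 call against introns was lost among the stronger 50% too (odds ratio 0.90, exact adjusted p = 0.770). In each subset the median was that of the subset, so these splits use another cut than the main one.

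One-to-one matching gave 130 reproduced pairs, near 137 of the 20033 protein-coding genes (0.684%). Near a canonical start site lay 81 of the 130, and the others were near other start sites only. The others included the strongest NFKB2 pair, both pairs of TNIP1, ACTB and EEF2, and those of TRAF1 and UBB. The median gap between partners was 14.5 bp, and it was 11.5 bp for the 90 pairs with a κB match in both lists and 34 bp for the 39 with none. Of those 90, 61 had the same nearest match. Of the 39, 32 lay in exons and 20 of these in coding sequence. Spearman's rho of the strengths was 0.76 over the 130 pairs, which share the same 2 libraries, and is given as a description.

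**Figure D4:**
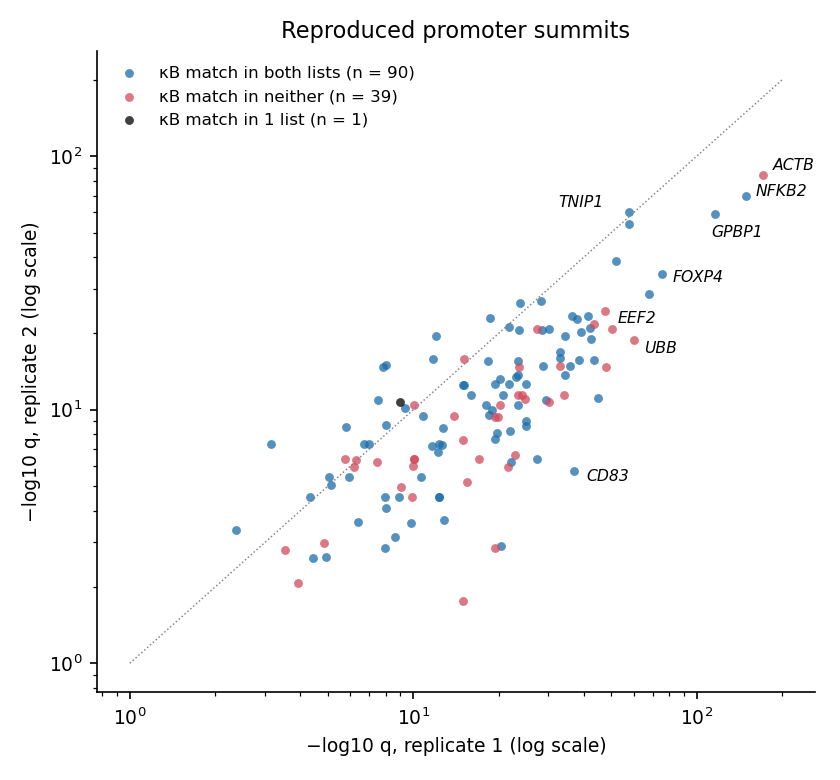
Strength (−log10 q, log scale) of the 130 reproduced promoter summits in replicate 1 and replicate 2, coloured by κB match, with the line of equal values dotted. ACTB, NFKB2 and GPBP1 lie at the upper right, and pairs with and without a match cover the same range.

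The gene lists below were chosen with earlier results of these data known, so their counts are descriptions and were not tested. Among NF-κB subunit genes, NFKB2, RELB and REL of 5 had a reproduced promoter summit, each with a κB match, against 0.684% of all protein-coding genes. NFKB2, which encodes p52 itself, had 3 promoter summits in each list, as many as NFKBIA in replicate 1 and more than any other gene. Its strongest, 25 bp apart between replicates and in exon sequence outside the coding part, reached −log10 q of 149 in replicate 1 and 70.0 in replicate 2. Its intronic summit had 20.4 and 2.89, and a further one without a match had 9.02 and 4.96. RELB, the usual partner of p52, had 36.2 and 23.3 at 117 bp and 110 bp upstream. REL, the c-Rel subunit, had 12.8 and 3.68 just inside the transcribed region. NFKB1 and RELA had no promoter summit in either list.

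Of 6 IκB family genes, 3 had a reproduced promoter summit, against the same 0.684% of all protein-coding genes. NFKBIA, which encodes the inhibitor IκBα, had 22.2 in replicate 1 and 6.21 in replicate 2. NFKBIB, which encodes IκBβ and lies head to head with SIRT2, had 23.02 and 13.5, with summits 1 bp apart. BCL3, a nuclear IκB protein that binds p50 and p52 homodimers, had a pair of reproduced summits, at 21.8 and 12.6 beside a start site and at 18.5 and 9.52 upstream. All of these had a κB match in both lists.

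The counts of reproduced genes in the next lists stand against that 0.684% as well. For a promoter summit with or without a partner, the background was 380 of the 20033 protein-coding genes in replicate 1 and 190 in replicate 2. Among the 7 A20 and ABIN genes, TNIP1, whose product ABIN1 binds A20, had reproduced summits of 57.8 and 60.5 in an intron and of 8.00 and 15.04 upstream. It was the strongest promoter summit of the pathway lists after NFKB2 in both replicates. TNFAIP3, which encodes A20, had 11.2 in replicate 1 only. Of 13 genes for the TWEAK receptor, its adaptors and kinases, TRAF1 alone had promoter summits, at 42.5 and 19.0 and at the same base in both lists. None of 31 TNF ligand and receptor genes had a reproduced one. TNFSF13, with 10.3, and EDAR, with 12.3, were in replicate 1 only.

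Other lists held target genes outside the pathway. The background was again 0.684% of all protein-coding genes for reproduced summits. For a summit in a single list it was again 380 genes in replicate 1 and 190 in replicate 2. Of 32 inflammatory effector genes, CSF1, a macrophage growth factor, had 23.6 and 20.6, and CD83, a surface protein of mature dendritic cells, had 36.8 and 5.74. CXCL1, CXCL2 and CXCL3, which encode neutrophil-attracting chemokines, had 10.51, 21.0 and 11.2 in replicate 1 only, and IL32 had 9.02. Of 17 antigen presentation genes, only B2M and ERAP1 had a promoter summit. B2M, the light chain of MHC class I, had 19.5 and 12.6, and ERAP1, a peptide-trimming enzyme, had 8.34 in replicate 1. Of 12 apoptosis regulators, BBC3 alone had promoter summits. BBC3, which encodes the death-promoting protein PUMA, had 20.3 and 13.2. Of 14 AP-1 and small MAF genes none was reproduced: MAFG had 6.89, JUND 6.69, FOSB 3.48 and JUNB 3.01, each in replicate 1 only. VIM, with 5.74 in replicate 1, was the only 1 of 25 invasion and matrix genes, and none of 12 NAD metabolism genes had a promoter summit.

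**Figure D5:**
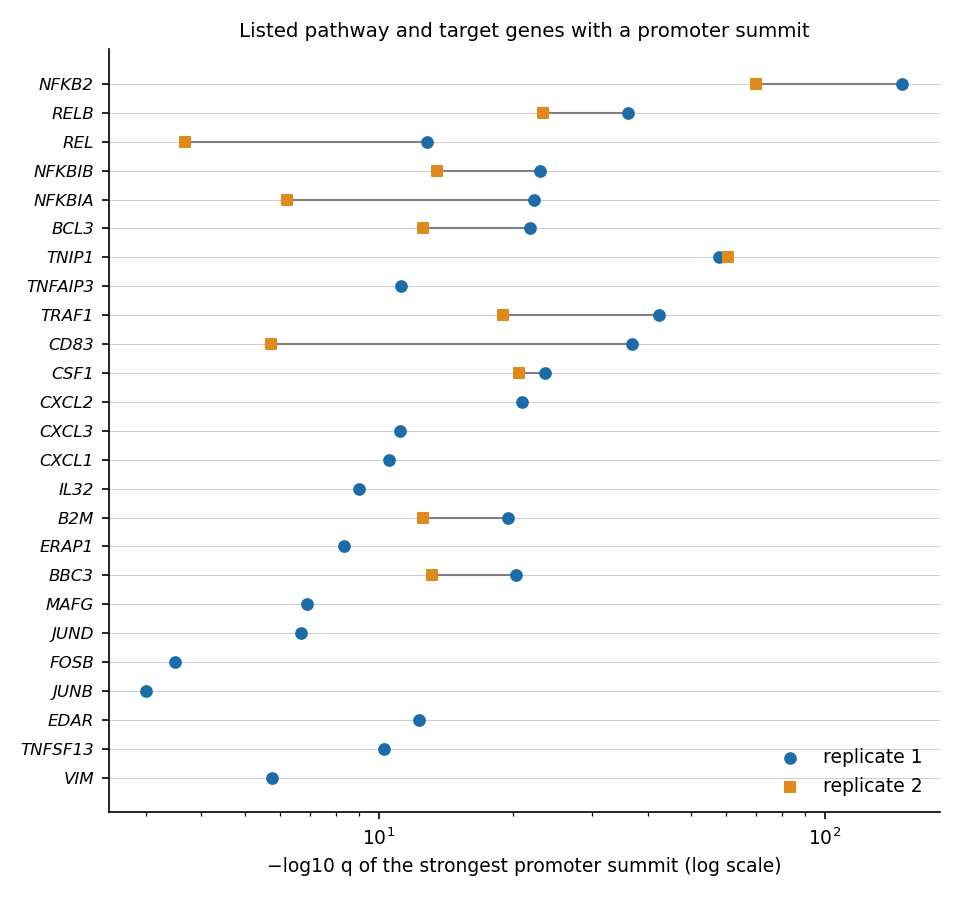
Strength (−log10 q, log scale) of the strongest promoter summit of each listed pathway or target gene, in replicate 1 (circles) and replicate 2 (squares), joined where both lists have one. NFKB2 and TNIP1 are the strongest, and genes with a circle alone, such as CXCL2, had none in replicate 2.

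The strongest reproduced promoter summits also included genes outside these lists. With a κB match in both lists stood GPBP1, which encodes a GC-rich promoter-binding protein, at 117 and 58.9. FOXP4, a forkhead factor, had 75.5 and 34.4, ARF3, a small GTPase, 52.03 and 38.7, and PLA2G6, a phospholipase, 67.8 and 28.5. POU2F2, which encodes OCT2, followed with 41.4 and 23.3. PRDM8 had 42.1 and 21.0, FAM111A 37.9 and 22.8, AIM2, a sensor of cytosolic DNA, 28.3 and 26.8, and FFAR2, a receptor for short-chain fatty acids, 34.4 and 19.6. At these 9 promoters replicate 1 had the larger value, as it had at 108 of the 130 pairs. PLA2G6, POU2F2, PRDM8 and FFAR2 had their pairs near other start sites only, the rest of the 9 near a canonical one.

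Some of the strongest pairs had no κB match and lay in exons of genes known for high expression in most cells, which was not measured here. ACTB, which encodes β-actin, ranked first, with 171 and 84.6 in its exon sequence outside the coding part. EEF2, a translation elongation factor, had 47.4 and 24.6, UBB, a ubiquitin gene, 60.0 and 18.8, and the summit near RPL41, ESYT1 and ZC3H10 50.4 and 20.7. A second ACTB pair in coding sequence had 39.0 and 20.2, with a match 53.5 bp from the summit. In the windows of replicate 1, 23.4% of the 31-mers at UBB and 0% of those at RPL41 were single-copy, against 100% at EEF2. At the first and the second ACTB pair 54.4% and 42.1% were. Of 24 housekeeping genes, 8 had a reproduced promoter summit, against 0.684% of all protein-coding genes, and 2 of the 8, ACTB and B2M, had a κB match. B2M is in the antigen presentation list as well. The same background holds for the next lists. Of 18 translation factor genes 3 had one and of 86 ribosomal protein genes 2, none with a match. The part of copy number in these summits was not tested. Of 69 histone genes, H2AC12 and H2BC12 shared a summit of 3.07 in replicate 2 only. NPAS4, with 43.3 and 21.8, was an intronic pair with no match.

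Promoters shared by genes on opposite strands made up 11 of the 130 pairs. Among the best were TRABD2A with TMSB10 (30.0 and 20.8), C20orf144 with NECAB3 (23.8 and 26.2), POGLUT1 with TMEM39A (35.6 and 14.8) and GTF3C4 with DDX31 (23.4 and 15.6). The match at TRABD2A lay 87.5 bp from the summit, and those of the other 3 at most 20.5 bp away.

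The strongest promoter summits without a partner in the other list were RPL8 (56.5), PABPC3 (34.2) and HNRNPA1L3 (32.8) in replicate 1, and PABPC3 (19.6), ACTG1 (15.3) and HNRNPA1L3 (13.7) in replicate 2. All lay in coding sequence and had no κB match. PABPC3 and HNRNPA1L3 had a summit in both lists, more than 200 bp apart. At the edge of the promoter window, TRPV3 in replicate 1 was the last inside, at 996 bp with −log10 q of 20.7, and SERF2 the first outside, at 1001 bp with 20.8. In replicate 2 PABPC3 and HNRNPA1L3 were last inside, at 990 bp, and SPATA18 first outside, at 1005 bp with 18.1.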

How the data were processed

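p52 ChIP-seq was done in 2 replicates of TWEAK-treated MDA-MB-231 cells. Peak calling was done by the authors with MACS2, on Bowtie2 alignments to hg38 and relative to input, with a blacklist filter afterwards, as the methods state. Versions, the q-value threshold and duplicate handling are not given in the sources used here. The deposited lists hold 1 summit per peak with a value read, from the MACS2 column layout, as −log10 of the authors' q-value. It depends on depth, which is unknown, so it ranks summits within a list.

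Each summit was placed on hg38 with GENCODE release 44. Promoter summits lay within 1000 bp of any protein-coding start site. Other classes were processed pseudogenes, start sites of other gene types, exons, introns and intergenic sequence. A summit was reproduced with one of the other list within 200 bp. For subsets of summits both lists were cut first, so the partner had to be in the subset as well. Motifs were sought within 100 bp. Windows with more than 50% of 31-mers found at 1 place of the genome were called mostly single-copy. The summit windows were compared with 10 tiles of equal length per gene around canonical start sites. Shares carry Wilson 95% intervals, which cover counting error only. Fisher's exact tests were two-sided with Benjamini-Hochberg adjustment, and odds ratios had 0.5 added to each cell, with Woolf intervals. In comparisons of strength between classes, summits above the list's median were counted. In subsets of summits the median was taken anew within the subset.

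Named genes were the 12 reproduced pairs of best mean rank, the 15 best with a κB match in both lists, genes of the lists, the 3 strongest summits not reproduced per replicate and the 5 best pairs on opposite strands. One item that this rule names is not reported here. NPAS4 was named after its values were seen. The members and lists were chosen with earlier results of these data known. Alternatives were other distances, 1 canonical start site per gene, subsets of summits and other κB definitions. Calculations used Python 3.11.15, numpy 2.4.6, scipy 1.17.1, pysam 0.24.0, samtools 1.23.1 and matplotlib 3.10.9. The motif search, the matching of the lists, the Fisher calls and the copy count were tested on simulated data. The assignment of summits to classes was not.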

Additional observations from a re-analysis of the deposited data

Results flagged for a closer look

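Summits within 1 kb of a protein-coding start site but inside a processed pseudogene were left out of the promoter summits. There were 7 in replicate 1 and 5 in replicate 2, a signal in data that the comparisons do not use. None had a κB match, and 4 in each list were reproduced. The strongest lay beside GOLGA3 in RPS11P5, with −log10 q of 110 and 70.0, and next was NBEAL1 in RPL12P16, with 32.8 and 20.8.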

How the results depend on the processing

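Of 384 alternative values, 318 kept their direction and their side of the threshold or, without a test, stayed within the spread, and counts within 1.5 times. Values in brackets are odds ratios. With start sites within 500 bp, the κB match by reproduction (1.94 in replicate 2) no longer passed. With start sites within 2 kb, reproduction against exons (1.80 in replicate 1), the κB match by strength (1.79 in replicate 2) and the κB match by canonical start (1.88 in replicate 2) passed in addition. With 1 canonical start site per gene, the number of promoter summits was 233 in replicate 1 and 108 in replicate 2 and the number of genes with a summit in both lists was 85. The κB match by side (1.73 in replicate 1) and the κB match by reproduction (2.27 in replicate 2) no longer passed. AP-1 against exons (0.56 in replicate 1 and 0.56 in replicate 2) changed direction. Among the stronger 50% of each list, the number of promoter summits was 140 in replicate 1 and 79 in replicate 2, the reproduced share was 47.1% in replicate 1 and 84.8% in replicate 2, the κB share was 72.1% in replicate 1, 69.6% in replicate 2 and 70.9% on average and the number of genes with a summit in both lists was 76. Reproduction against introns (0.70 in replicate 1), strength against introns (0.90 in replicate 1), strength against intergenic sequence (0.93 in replicate 1 and 0.85 in replicate 2), AP-1 against introns (0.54 in replicate 2), reproduction against exons (1.23 in replicate 2), the κB match by reproduction (1.21 in replicate 1 and 2.68 in replicate 2) and the κB match by canonical start (1.93 in replicate 1) no longer passed. Strength against exons (0.93 in replicate 1 and 0.66 in replicate 2) and the κB match by strength (0.78 in replicate 1) changed direction. At −log10 q of at least 5, the reproduced share was 41.4% in replicate 1 and 87.8% in replicate 2 and the κB share was 64.8% in replicate 1 and 66.1% on average. Strength against intergenic sequence (0.73 in replicate 1 and 0.75 in replicate 2), strength against exons (1.16 in replicate 1 and 1.34 in replicate 2), AP-1 against introns (0.40 in replicate 2), reproduction against exons (2.01 in replicate 2), the κB match by reproduction (1.52 in replicate 1 and 1.48 in replicate 2), the κB match by strength (1.81 in replicate 1) and the κB match by canonical start (1.65 in replicate 1) no longer passed. Reproduction against introns (2.08 in replicate 2) passed in addition. Strength against introns (1.05 in replicate 2) changed direction. In mostly single-copy windows, the κB match by canonical start (1.64 in replicate 1) and the κB match by reproduction (1.963 in replicate 2) no longer passed. Reproduction against exons (1.64 in replicate 1) passed in addition. Without summits in coding sequence, the κB share was 66.0% in replicate 1, 73.5% in replicate 2 and 69.7% on average. The κB match against introns (0.74 in replicate 2), the κB match against intergenic sequence (0.63 in replicate 2), strength against intergenic sequence (0.65 in replicate 2) and the κB match by canonical start (1.30 in replicate 1) no longer passed. Reproduction against exons (1.65 in replicate 1) passed in addition. With reproduction within 100 bp, reproduction against exons (1.75 in replicate 1) passed in addition. Reproduction against intergenic sequence (0.87 in replicate 2) changed direction. With reproduction within 500 bp, reproduction against exons (1.36 in replicate 2) and the κB match by reproduction (1.52 in replicate 2) no longer passed. Reproduction against introns (1.64 in replicate 2) passed in addition. With the κB match within 50 bp, the κB share was 49.9% in replicate 1. The κB match by strength (2.38 in replicate 2) passed in addition. With the wider κB consensus, the κB match by strength (1.95 in replicate 2) passed in addition. The reversed differences were not called in both settings. Leaving out 1 replicate gave shares of 55.1% to 62.8% for the κB match and 36.3% to 72.8% for reproduction. With 2 replicates such values always stay within the SD of the mean, so they entered the 318 by design. The narrower κB consensus changed none of the calls. Subsets hold fewer summits, and in them medians and partners came from the subset alone. Further causes were not tested. No paired analysis was possible because there was 1 group. Unknown depth and peak threshold limit which summits a list could hold.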
